A study of Mus musculus with 10 samples.

Results

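A set of 7 genes of fuel choice and fatty acid metabolism was examined in the colon of mice with dextran sulfate sodium (DSS) colitis, namely Pdk4, Decr1, Hsdl2, Acnat1, Slc25a13, Aldh1b1 and Amacr, 7 of 55416 rows in the deposited count tables. All lie inside 3 stretches of the mm10 genome where counts followed gene names, which are chromosome 4 from 1 to 59.9 Mb, chromosome 6 from 1 to 30.3 Mb and chromosome 15 from 10.4 to 38.1 Mb. Elsewhere in the genome many genes of families that every cell uses had few counts, so gene names are used only inside the stretches. The members were chosen by function, with their CPM in knockout and WT libraries and the calls for Pdk4 and Acnat1 already seen, so the tests below describe the fit and are not independent evidence for those genes.

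The study compared mice lacking Vista, an immune checkpoint protein encoded by Vsir, with wild-type (WT) mice. All mice drank 2% DSS for 7 days, a treatment that injures the colonic epithelium, so no library came from an untreated colon. The genotype was given as VISTA knockdown for 3 libraries (knockout 1 to 3) and as Vista-/- for 2 (knockout 4 and 5), with KO in all of their titles, and 5 WT libraries were set against them. WT 1 to 3 were deposited in the first table with knockout 1 to 3, and WT 4 and 5 in the second with knockout 4 and 5. The labels gave no age, sex or strain and did not say how the allele was made. The Vsir row lies outside the 3 stretches, so the genotype labels were not checked. The labels do not tie libraries to animals, so the p-values reflect library spread, which may be technical. Values are CPM, the counts of a row scaled to the total of its library, which includes rows outside the stretches, and library totals ran from 3691322 to 4071238 counts. A change is the log2 ratio of knockout to WT, fitted in edgeR with a term for the table, a call is an adjusted p under 0.05 over all rows tested, and ± after a log2 value is the standard error (SE) of the fit.

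Colon tissue draws energy from glucose, fatty acids and, in colonocytes, the butyrate made by gut bacteria. Pyruvate from glucose enters the citric acid cycle through the pyruvate dehydrogenase complex, which pyruvate dehydrogenase kinases switch off by phosphorylation and phosphatases switch on again. Long-chain fatty acids are broken down by beta-oxidation in mitochondria, while very long and branched chains and the side chains of bile acid precursors are first shortened in peroxisomes. Pdk4 is a kinase gene that fasting and fatty acids are known to induce.

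Pdk4 and Acnat1 are the members whose levels differed most between genotypes, so the sequence around their RefSeq start sites is shown, from 250 bases before to 50 after the start. The RefSeq table (GRCm38.p6) matched 5 of the 7 members, all but Decr1 and Amacr. Sequences are written 5′ to 3′ along the gene's own strand, and capitals mark a match to CCAAT or its reverse complement ATTGG.
Pdk4, chr6:5496229-5496528, minus strand: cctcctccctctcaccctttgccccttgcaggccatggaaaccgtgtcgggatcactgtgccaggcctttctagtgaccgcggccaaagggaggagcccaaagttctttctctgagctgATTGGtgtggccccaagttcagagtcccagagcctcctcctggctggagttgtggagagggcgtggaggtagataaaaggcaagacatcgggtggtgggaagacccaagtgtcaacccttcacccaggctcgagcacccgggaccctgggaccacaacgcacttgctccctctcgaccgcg
Acnat1, chr4:49451060-49451359, minus strand: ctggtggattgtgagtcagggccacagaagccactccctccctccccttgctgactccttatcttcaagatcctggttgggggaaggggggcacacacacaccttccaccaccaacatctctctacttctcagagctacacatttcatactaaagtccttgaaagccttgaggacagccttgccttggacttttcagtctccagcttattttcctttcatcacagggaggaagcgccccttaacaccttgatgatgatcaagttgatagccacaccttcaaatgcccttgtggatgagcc

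Both strands of these windows were searched for AGGTCA, the core bound by many nuclear receptors, TGTTTAC, the core bound by FOXO factors, the palindromic glucocorticoid response element, the GC box GGGCGG, the CCAAT box and the HNF1 core GTTAAT. Motif matches could overlap. The Pdk4 window held 1 match, an ATTGG beginning 131 bases before the start site, and the Acnat1 window held none of the 6 motifs. Of 32817 promoter windows of this length, 37.4% held CCAAT, 16.3% AGGTCA, 3.65% TGTTTAC, 35.6% GGGCGG, 7.1% GTTAAT and 0.00914% the glucocorticoid element. The window of Hsdl2 held 3 GC boxes, of which the first pair overlapped, that of Aldh1b1 1 GC box and 1 CCAAT match, and that of Slc25a13 1 CCAAT match. RefSeq starts Acnat1 inside the longer GENCODE M21 model, which reaches to 49473912.

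Pdk4 (ENSMUSG00000019577, chromosome 6 from 5483351 to 5496309) was lower in knockout colons. Its level was 25.2, 41.9, 12.3, 51.8 and 56.3 CPM in WT 1 to 5 and 8.69, 5.90, 8.28, 13.1 and 11.02 CPM in knockout 1 to 5. WT 4 and WT 5 stood highest and WT 3 lay between the knockout libraries 4 and 5, so single libraries of the genotypes overlapped over all 10 but not within either table. The WT mean was 37.5 ± 18.5 CPM and that of the knockout 9.40 ± 2.75 (SD, 5 libraries each). The change was -1.93 ± 0.28 on the log2 scale (3.80-fold), with an adjusted p of 0.00526 in edgeR. These values rest on 24 to 208 reads a library. Pdk4 kept the call when any single library was left out, with changes of -2.13 to -1.71 and adjusted p values of at most 0.0178. Without both WT 4 and WT 5, with knockout 4 and 5 kept and no table covariate, the change was -1.47 ± 0.34 (adjusted p 0.0679 in edgeR). That fit sets second-table knockouts against first-table WT libraries only, so it cannot separate genotype from table. It also called 78 of 10115 rows tested, where the pooled fit of all 10 libraries called 548 of 9736. The first table alone gave -1.76 ± 0.39 (adjusted p 0.0294 in edgeR).

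Pdp1 encodes a phosphatase that reactivates pyruvate dehydrogenase, the opposing step to Pdk4, and was the other gene of that list inside the stretches. It stood at 78.7 ± 11.9 CPM in the knockout and 62.4 ± 18.0 in WT (SD, n = 5). Its change of 0.40 ± 0.16 did not pass in edgeR (adjusted p 0.1503), and passed in 2 of 18 alternatives, without the filter on low counts and without knockout 3. WT 4 and WT 5 were lowest for Pdp1, at 48.6 and 39.6 CPM. Without them, with knockout 4 and 5 kept and no table covariate, its change was 0.10 ± 0.16.

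**Figure D1:**
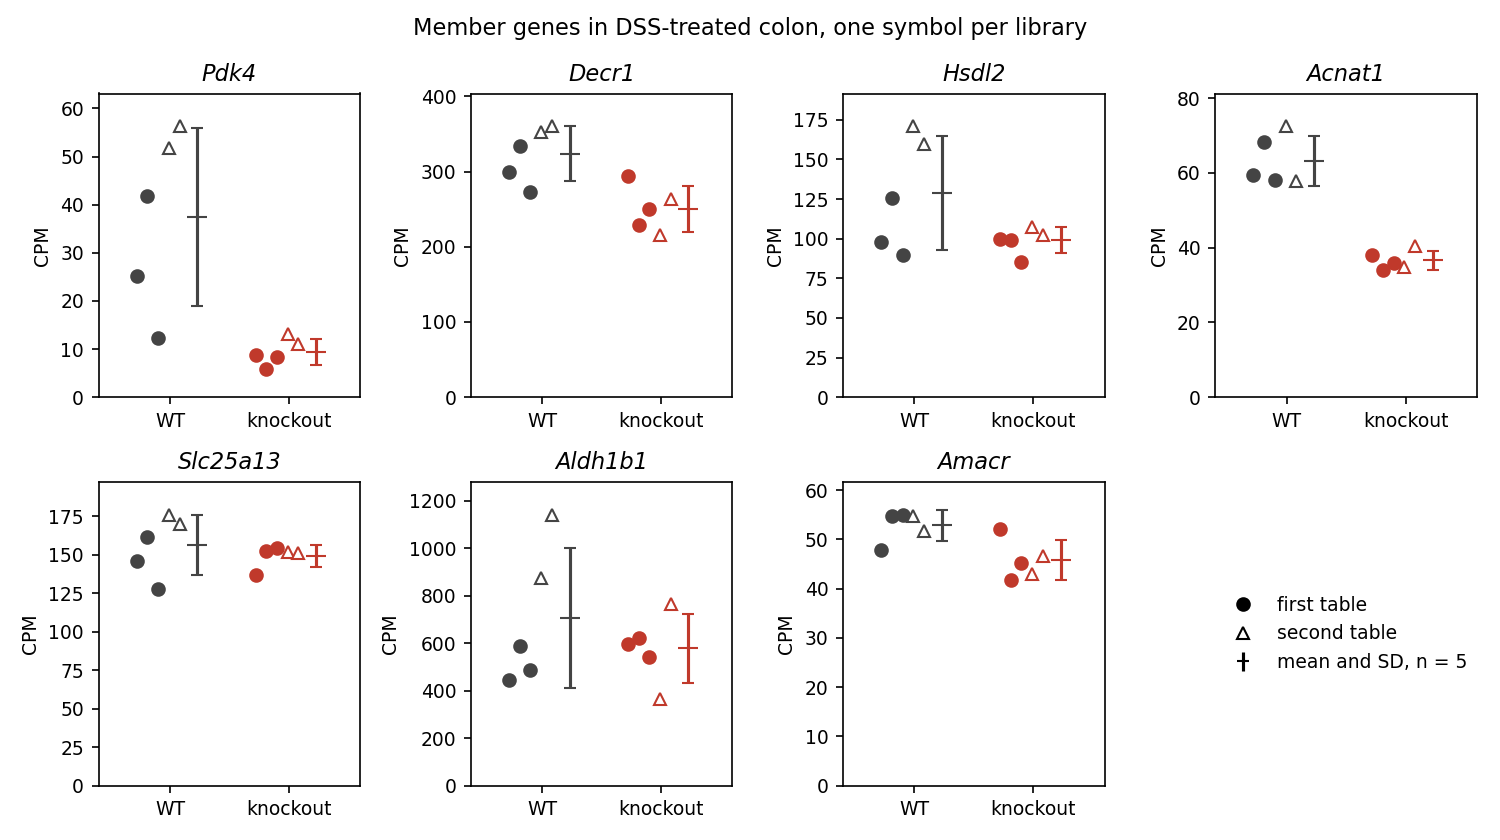
CPM of each of the 7 members (vertical axes start at 0) in WT and knockout libraries, with circles for the first table, triangles for the second, and the mean and SD of 5 libraries beside them. The genotypes do not overlap in Acnat1, and the WT triangles lie highest in Pdk4, Decr1, Hsdl2, Slc25a13 and Aldh1b1.

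Acnat1 (ENSMUSG00000070985, chromosome 4 from 49447105 to 49473912) encodes a peroxisomal acyltransferase that joins fatty acids to taurine. It stood at 59.5, 68.3, 58.1, 72.5 and 57.7 CPM in WT 1 to 5 and at 38.0, 34.1, 35.8, 34.8 and 40.4 CPM in knockout 1 to 5. Every knockout library lay below every WT library, which was also so for 4.51% of all rows tested. The means were 63.2 ± 6.74 and 36.6 ± 2.56 CPM (SD), and the change was -0.76 ± 0.10 (1.69-fold) with an adjusted p of 0.00346 in edgeR. The call held without WT 4 and WT 5, with knockout 4 and 5 kept and no table covariate (-0.74 ± 0.11, adjusted p 0.0174 in edgeR). Acnat1 varied less among libraries than Pdk4, with coefficients of variation of 10.7% in WT and 7.00% in the knockout against 49.2% and 29.3%.

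Acnat1 has a near copy, Acnat2, and 24.0% of the windows of 50 bases in Acnat1 transcripts also occur in Acnat2, so reads there could have been split or dropped. The Acnat2 row held 3 counts over the 10 libraries, and adding them to Acnat1 gave -0.75. So few counts could hardly move the change. Reads dropped for matching both genes would be in neither row, so their effect was not tested. Of the other members, 1.40% of the windows of Pdk4 and 0.0528% of those of Slc25a13 recurred in other genes, and none of those of Decr1, Hsdl2, Aldh1b1 or Amacr. No member shares exon bases with another gene in GENCODE M21.

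Acnat1 lies between Acnat2 and Baat, which encodes the enzyme that joins bile acids to taurine or glycine. Baat was low, at 6.10 ± 1.39 CPM in the knockout and 9.08 ± 2.72 in WT (SD, n = 5), and its change of -0.53 ± 0.24 did not pass (adjusted p 0.206 in edgeR). Further from Acnat1 lie Mrpl50, a gene of the mitochondrial ribosome, and Zfp189, a zinc finger gene. They had changes of -0.13 ± 0.08 and -0.33 ± 0.19 with adjusted p values of 0.357 and 0.318 in edgeR.

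**Figure D2:**
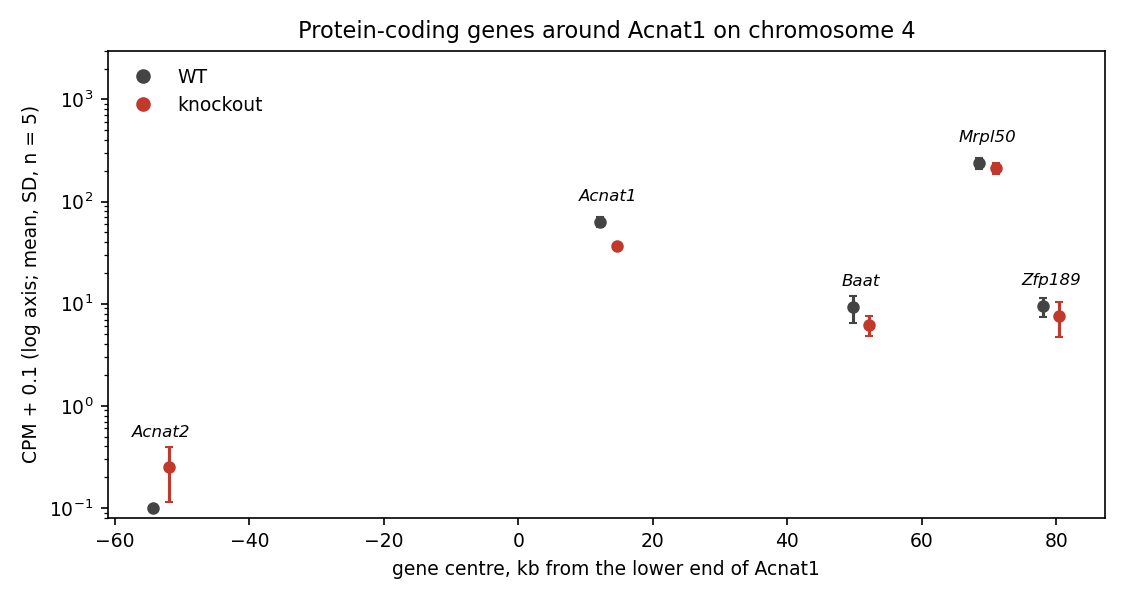
Acnat1 and 4 protein-coding genes within 100 kb of it, placed by the distance of their centre from the lower end of Acnat1 in kb, with mean CPM + 0.1 on a log axis and the SD of 5 libraries in WT and knockout. Acnat1 is lower in the knockout with no overlap of the bars, and Mrpl50 lies at 238 CPM in WT and 212 in the knockout.

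The members other than Pdk4 and Acnat1 did not pass the test. Decr1 (ENSMUSG00000028223, chromosome 4 from 15917240 to 15945507) encodes the mitochondrial 2,4-dienoyl-CoA reductase, needed to oxidise polyunsaturated fatty acids. It stood at 299.5, 333.5, 273.5, 352 and 361 CPM in WT 1 to 5 and at 294, 229, 249.9, 216 and 264 CPM in knockout 1 to 5. The highest knockout library lay above WT 3 alone. The change was -0.34 ± 0.11 with an adjusted p of 0.0915 in edgeR, and adjusted p values ran from 0.0525 to 0.321 over 18 alternatives, so Decr1 came near the threshold but did not cross it.

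Hsdl2 (ENSMUSG00000028383, chromosome 4 from 59581563 to 59618689) encodes a peroxisomal dehydrogenase-like protein. It stood at 97.9, 125, 89.8, 171 and 159.8 CPM in WT 1 to 5 and at 99.6, 99.5, 85.5, 108 and 103 CPM in knockout 1 to 5. WT 4 and WT 5 lay above all other libraries, and WT 1 and WT 3 lay among the knockouts. The change was -0.32 ± 0.13 (adjusted p 0.175 in edgeR). It was -0.05 ± 0.12 without WT 4 and WT 5, with knockout 4 and 5 kept and no table covariate.

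Amacr (ENSMUSG00000022244, chromosome 15 from 10981756 to 10996626) encodes the racemase that lets branched-chain fatty acids and bile acid precursors enter peroxisomal oxidation. Its WT libraries ran from 47.9 to 55.1 CPM and its knockout libraries from 41.8 to 52.2. The groups overlapped through knockout 1, which lay above WT 1 and WT 5, and the change was -0.18 ± 0.09 with an adjusted p of 0.268 in edgeR.

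The remaining members act at the mitochondrial border and on aldehydes. Slc25a13 (ENSMUSG00000015112, chromosome 6 from 6041218 to 6217173) encodes citrin, a carrier of the malate-aspartate shuttle that brings reducing power into mitochondria. It stood at 128 to 176 CPM in WT and 137 to 154 CPM in the knockout, with a change of -0.03 ± 0.09 and an adjusted p of 0.846 in edgeR. Aldh1b1 (ENSMUSG00000035561, chromosome 4 from 45799022 to 45804604) encodes a mitochondrial aldehyde dehydrogenase. It stood at 443, 587, 488, 874 and 1141 CPM in WT 1 to 5 and at 595, 620.0, 541, 365 and 766.5 CPM in knockout 1 to 5. Knockout 1 and knockout 2 lay above every WT library of the first table, and knockout 4 and knockout 5 lay below both WT libraries of the second. The pooled change was -0.17 ± 0.24 (adjusted p 0.693 in edgeR). The first table alone gave 0.25 ± 0.12, and the second alone -0.83 ± 0.37.

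In all, 2 of the 7 members were called lower and 0 higher in the pooled edgeR fit, against 5.63% of 9736 rows called, 2.93% lower and 2.7% higher. All 7 passed the filter on low counts. Among the 427 rows tested inside the stretches, 8.90% were called in either direction. At an unadjusted p under 0.05, 4 members were lower and 0 higher, against 23.3% of all rows tested, 11% lower and 12.3% higher. DESeq2 and voom also called Pdk4 and Acnat1 lower and 0 members higher, with 840 of 9539 and 565 of 9736 rows called. The median change of the 7 was -0.32, beside 0.02 over all rows tested and -0.03 over those inside the stretches.

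**Figure D3:**
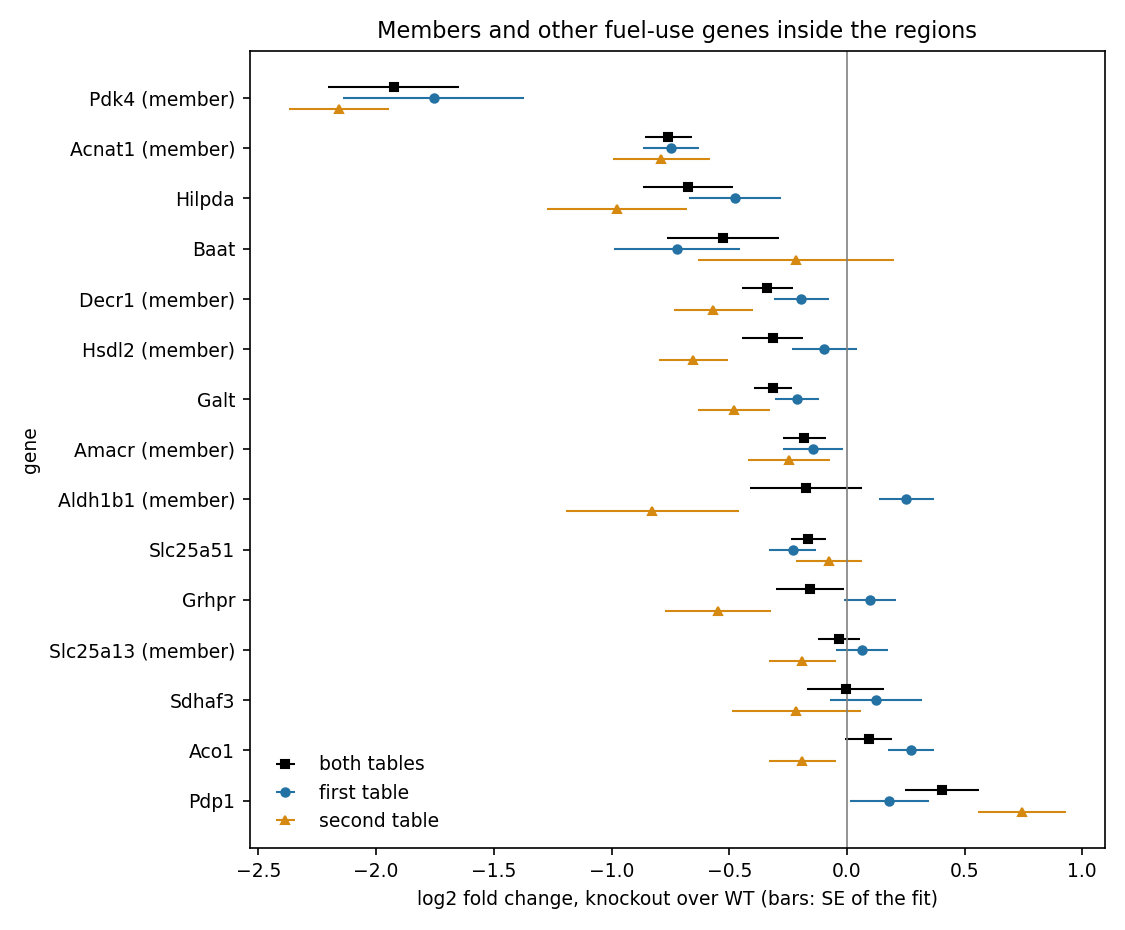
Log2 fold change, knockout relative to WT (horizontal axis, bars are the SE of the fit) for the 7 members and 8 other tested fuel-use genes, from both tables together, the first and the second. Pdk4 and Acnat1 lie lowest in the pooled fit, and Pdp1 is the highest, at 0.40.

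In the first table alone, with 3 libraries of each genotype, Acnat1 (-0.75 ± 0.12, adjusted p 0.00887) and Pdk4 (-1.76 ± 0.39, adjusted p 0.0294) were called by edgeR, against 6.06% of 9829 rows called, 2.96% lower and 3.1% higher. All 3 knockout libraries lay below all 3 WT libraries there for Pdk4 and Acnat1, and for 17.1% of rows. With any library other than WT 3 left out, Acnat1 was the single member called. Those fits called from 158 of 10107 rows (without WT 2) to 456 of 10183 (without knockout 3). In the second table, which held a pair of libraries of each genotype, Pdk4 was the single member called (-2.16 ± 0.21, adjusted p 0.0256 in edgeR), against 0.856% of 9932 rows called, 0.322% lower and 0.534% higher. All 7 members were lower in both knockout libraries than in both WT libraries there, as were 21.9% of rows. Acnat1 there had -0.79 ± 0.21 with an adjusted p of 0.158. With any 1 library of the second table left out, edgeR called 0 to 5 of all rows, so these fits say nothing on the members.

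The second table gave the lower change for each of the 7 members, from -0.19 in Slc25a13 to -2.16 in Pdk4, where the first gave -1.76 to 0.25. The interaction of genotype and table was below 0 for all 7 members, for 49.1% of rows tested and 44.7% of those inside the stretches. Tested as an interaction of genotype and table, 0 members passed in edgeR, DESeq2 or voom, against 2.05% of rows called, 0.298% with the lower effect in the second table and 1.76% with the higher, and 2 (Hsdl2 and Aldh1b1) had an unadjusted p under 0.05, as had 14.6% of rows. The interaction was -1.08 ± 0.36 for Aldh1b1 (adjusted p 0.182 in edgeR) and -0.55 ± 0.21 for Hsdl2 (adjusted p 0.239). WT 4 and WT 5 were the 2 highest of the 10 libraries for Pdk4, Decr1, Hsdl2, Slc25a13 and Aldh1b1, 5 of the 7 members, and for 9.15% of all rows tested.

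Some markers of other cells also stood apart in WT 4 and WT 5. The B cell genes Pax5 and Cd72, 2 of 9 listed markers inside the stretches, summed to 25.5 and 17.9 CPM in WT 4 and WT 5, to 114 to 254 CPM in the other WT libraries and to 102 to 218 in the knockout. Tox, the 1 of 9 T cell markers inside, stood at 112 and 101 CPM in WT 4 and WT 5, at 62.8 to 93.7 in the other WT libraries and at 48.1 to 63.0 in the knockout, and fell (-0.59 ± 0.15, adjusted p 0.0427 in edgeR). Of 9 enteric neuron markers, 2 lay inside. Tac1, the gene of substance P, rose (1.498 ± 0.25, adjusted p 0.00826 in edgeR) and Penk, the proenkephalin gene, fell (-1.02 ± 0.24, adjusted p 0.0308). Tac1 stood at 644, 513 and 562 CPM in knockout 1 to 3, at 112 and 173 in knockout 4 and 5, and at 70.2 to 165 in WT. Its change in the second table alone was 0.72 ± 0.29 (adjusted p 0.350 in edgeR). Smooth muscle markers (2 of 11, Tpm2 and Cav1) summed to 989 and 1585 CPM in WT 4 and WT 5, to 1145 to 1651 in the other WT libraries and to 645 to 1860 in the knockout. Fibroblast markers (2 of 9, Col1a2 and Npr3) summed to 589 and 701 CPM in WT 4 and WT 5, to 802 to 1215 in the other WT libraries and to 555 to 1147 in the knockout. Cav1, also the 1 of 8 endothelial markers inside, stood at 160.1 to 366 CPM in WT and 157 to 521 in the knockout. Of 24 epithelial markers, 7 lay inside, summing to 8482 to 11485 CPM in WT and 7717 to 10663 in the knockout. Changes were 0.04 ± 0.09 for Cdh17, the intestinal cadherin, 0.21 ± 0.17 for Klf4 and -0.11 ± 0.25 for Spink4. Grhl2 had -0.15 ± 0.13 and Esrp1 -0.19 ± 0.08 (adjusted p 0.191 in edgeR), and none of these passed. For Esrp1 every knockout library lay below every WT library, as for 4.51% of all rows tested. The epithelial chloride channel gene Cftr fell (-0.69 ± 0.16, adjusted p 0.0310 in edgeR), and Aqp3, a water and glycerol channel gene of colon epithelium, stood at or below 1.05 CPM in every library. The adipocyte genes Lep and Aqp7, 2 of 9, summed to at most 3.44 CPM in any library. In bulk colon RNA, fewer cells of a type and less RNA per cell cannot be told apart, and the part of cell makeup in the member results was not tested.

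Per kilobase of merged exons, Aldh1b1 had the highest mean level, 279 ± 99.9 CPM per kb (SD over 10 libraries), and its lowest library lay above the highest of Decr1 (74.0 ± 12.9). Hsdl2 (40.7 ± 10.5) and Slc25a13 (40.2 ± 3.77) came next, and their order differed among libraries, with Hsdl2 above in 3 of 10. Acnat1 (23.5 ± 6.96) lay above Amacr (18.9 ± 1.94) in 7 of 10 libraries. Pdk4 was lowest in all 10, at 6.68 ± 5.51 CPM per kb. Pdk4 and Acnat1, the 2 called members, were thus among the 3 least abundant.

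Of 294 genes in 11 lists of fuel use and fatty acid metabolism, 21 lay inside the stretches, and 15 of these passed the filter, the 7 members and 8 others. Among the 8 others, Galt was called lower and 0 higher, against 5.63% of all rows tested and 8.90% of those inside the stretches. Their median change was -0.16, beside 0.02 over all rows tested and -0.03 over those inside the stretches. Of the 8, 4 (Galt, Hilpda, Baat and Pdp1) had an unadjusted p under 0.05, against 23.3% of all rows tested. Galt, which encodes an enzyme of galactose use and whose row may hold reads of an overlapping gene, was at 108 ± 6.44 CPM in the knockout and 138 ± 11.3 in WT (SD, n = 5), with -0.32 ± 0.08 and an adjusted p of 0.0439 in edgeR. It lost the call in 15 of 18 alternatives, among them the omission of any 1 library. Hilpda, the gene of a lipid droplet protein, had -0.68 ± 0.19 with an adjusted p of 0.0645, and passed in 3 of 18 alternatives.

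The mitochondrial NAD carrier gene Slc25a51 had -0.16 ± 0.08 and did not pass (adjusted p 0.222 in edgeR). Its knockout libraries (233 to 256 CPM) all lay below its WT libraries (265 to 310), as for 4.51% of all rows tested. Aco1, the gene of cytosolic aconitase, had 0.09 ± 0.10, the complex II assembly gene Sdhaf3 -0.01 ± 0.16 and Grhpr, a glyoxylate reductase gene, -0.16 ± 0.15. Sdhaf3 turned positive in 8 of 18 alternatives and Aco1 turned to -0.19 in the second table. The 6 genes below the filter were Acnat2, Acot10, Cyp7a1, Aqp3, Aqp7 and Lep, of which Cyp7a1, the rate-limiting enzyme of bile acid synthesis in liver, had 0 counts. The genes of fatty acid synthesis, ketone bodies and the listed regulators such as Ppara and Foxo1 all lie outside the stretches and are not analysed here.

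The named protein-coding genes nearest to Pdk4 in profile were Tmem229a, Anks6, Adamts12, Ank and Penk, out of 39 with an SD of at least 0.56 on the log2 scale. Likeness was the mean absolute difference of log2(CPM + 1), centred on each gene's mean, over the 10 libraries. It was 0.49 for Tmem229a, 0.52 for Anks6, 0.55 for both Adamts12 and Ank and 0.57 for Penk, beside a median of 1.04 over the 39. Among the members, Acnat1 was nearest to Pdk4, at 0.65, and Amacr farthest, at 0.90. The members other than Pdk4 had SDs of 0.14 (Slc25a13) to 0.48 (Aldh1b1), below the minimum set for the 39. Their distances are thus not comparable with that median. Tmem229a, a membrane protein gene, stood at 6.18 to 7.58 CPM in WT, without the low WT 3 value of Pdk4.

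**Figure D4:**
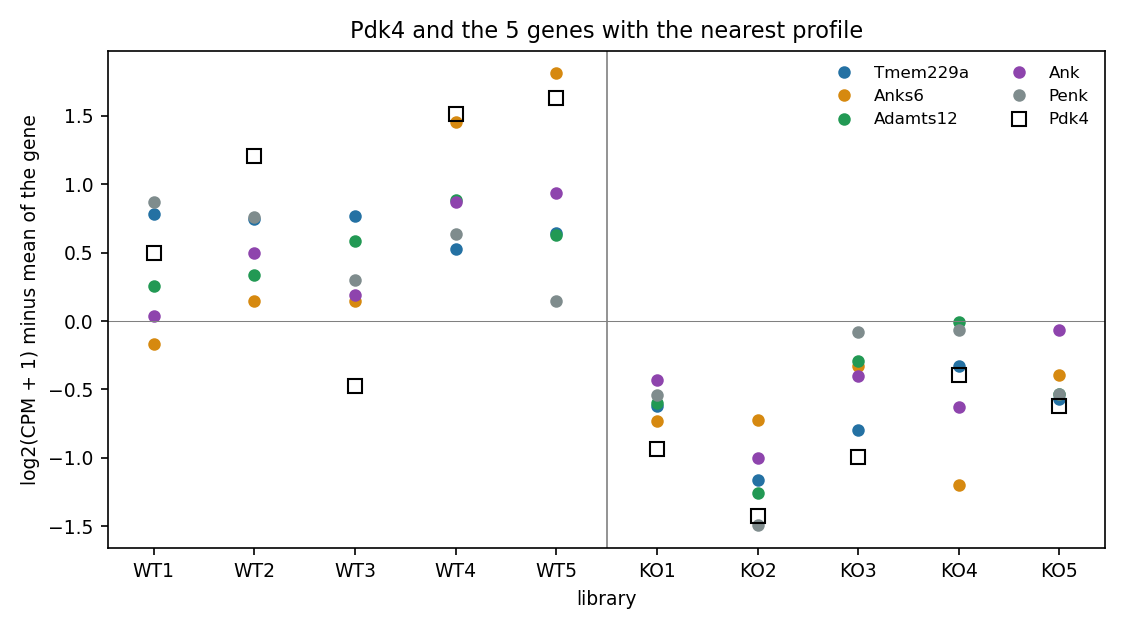
Log2(CPM + 1) minus the gene's mean over 10 libraries (vertical axis) for Pdk4, drawn as open squares, and the 5 nearest genes, drawn as filled circles, in WT and knockout libraries. Pdk4 is above 0 in every WT library except WT 3, where the other 5 genes are above 0.

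How far the rows of the members count their own transcripts was looked at in neighbours from universally used gene families, picked by symbol. Use of each such gene in colon was not checked, so a low count alone does not show a misnamed row. Of 15 such genes flanking the members, 11 had 500 counts or more. Inside the stretches 18 of 20 (90%) did, and outside them 109 of 480 (22.7%). The first share follows in part from how the stretches had been chosen, on such genes. Hsdl2 lies 0.281 Mb inside the end of its stretch, and the next such genes beyond, Atp6v1g1 and Rps6, had 8 and 199 counts. Its immediate neighbour Ptbp3, a splicing regulator gene, stood at 798 to 1234 CPM. Amacr lies 0.582 Mb inside the start of its stretch, Rpl37 before it had 10 counts, and the nearest such gene after it, Cct5, with 36137 counts, is 20594 kb away. For no other member is the nearest such gene with 500 counts or more as far off. Next comes Hsdl2, with Mrpl50 at 10060 kb.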

How the data were processed

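RNA of colon from 5 Vista knockout and 5 WT libraries had been sequenced on the BGIseq500 platform. The authors deposited raw read counts for each Ensembl identifier. Per the submitters' processing notes, the first 6 libraries were handled with HISAT2 2.2.1 and featureCounts 2.0.1, naming the human build GRCh38, and the other 4 with HISAT2, featureCounts 2.0.1 and mm10. The annotation is not given in the sources used here, nor is the strand setting, so antisense reads may be included. Of the 3281 identifiers that M21 lacks, 2147 begin ENSMUSG00002, and whether the annotation and the alignments were of the same build was not tested. Rows outside the stretches may not count the gene of their name, and TMM scaling, adjusted p values and shares of all rows rest on them.

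Identifiers were named through GENCODE M21 (mm10), which held 52135 of 55416 and gave all coordinates. The 3 stretches held 1415 rows and 9.90% to 10.6% of a library's counts. CPM used column totals. All rows were fitted with edgeR 4.0.16 (R 4.3.3), using TMM, filterByExpr and the quasi-likelihood test with Benjamini-Hochberg adjustment at 0.05, with the table as a covariate, in each table alone, and for the interaction. The SE is the change divided by the root of its F statistic. The fit was run on simulated counts with planted changes, the same dispersion for every row and no difference between tables. That run therefore does not measure the accuracy of the fit on these libraries. DESeq2 1.42.0, voom (limma 3.58.1), no filter, scaling to the stretches, no covariate and omitted libraries were alternatives. The closest pair of libraries, WT 2 and WT 3, had a mean chi-square per row of 4.06, above counting noise. Members and lists were chosen with earlier results of these data known. Genes named with values are the members, listed genes inside the stretches, the 5 profiles nearest to Pdk4 and some flanking genes of universally used families. Of the neighbours within 100 kb, those of Acnat1 and Ptbp3 beside Hsdl2 are described, and those of the other members are not. Adamts12, named for its profile, also lies within 100 kb of Amacr. One gene of the fuel-use lists is not reported here. The 100 kb neighbours and omissions in the second table were added after the values were seen.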

Additional observations from a re-analysis of the deposited data

Results flagged for a closer look

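One library stood apart from its group. Knockout 1 had 136.9 CPM of Slc25a13, below the other 4 knockout libraries at 151 to 154 CPM. It was the single case among 30 groups examined (15 genes in each genotype), where 1.5 would arise at 1 in 20.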

How the results depend on the processing

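No paired analysis was possible because knockout and WT libraries carry no number in common in their labels. Over all alternatives of the pooled comparison, 2 members were called except without both WT 4 and WT 5 and the table covariate, where 1 (Acnat1) was, and the listed genes called went from 3 to 1. Calls over all rows went from 548 of 9736 to 78 of 10115 in that fit. Leaving out 1 library gave 2 members in each case and 2 to 3 listed genes. Calls over all rows then ran from 226 of 9939 (without WT 4) to 990 of 9902 (without knockout 5). In the first table voom called 1 member and 526 of 9829 rows, and leaving out 1 library gave 1 to 2 members. In the second table, no filter on low counts gave 0 members and 2 of 23540 rows. Leaving out 1 library there gave 0 members and 0 to 5 rows, with the lone library of a genotype assumed to vary like the others, so these fits could call almost nothing. For the interaction, no filter gave 1 member (Aldh1b1) and 717 of 28202 rows. Leaving out 1 library gave 0 to 1, the 1 being Aldh1b1 without knockout 5, where 484 of 9902 rows were called.

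Signs turned as follows. The first table alone gave 0.25 for Aldh1b1, 0.062 for Slc25a13, 0.10 for Grhpr and 0.12 for Sdhaf3, and the second alone -0.19 for Aco1. Without WT 4 and WT 5 and the table covariate, the values were 0.22 for Aldh1b1, 0.060 for Slc25a13, 0.036 for Grhpr and 0.030 for Sdhaf3. Scaling to the stretches gave 0.0010 for Slc25a13 and 0.027 for Sdhaf3, and no filter 0.016 for Sdhaf3. Leaving out 1 library gave -0.29 to 0.057 for Aldh1b1 (highest without knockout 4) and -0.086 to 0.092 for Sdhaf3. The cause was not tested. Pdk4 rests on as few as 24 reads in a library. Other named genes rest on fewer, among them Baat, Tmem229a, Adamts12, Zfp189, Npr3, Pax5 and the genes below the filter. This limits the precision of their levels and of those of Pdk4.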
